A study of Mus musculus with 8 samples.

Results

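The Hox genes of clusters A, B, C and D were followed across small and large intestine of the mouse. They were taken as every gene whose symbol is Hoxa, Hoxb, Hoxc or Hoxd followed only by digits. The rule gave 39 of the 32285 genes counted: 11 of the Hoxa cluster (chromosome 6, 52155367 to 52260880), 10 of the Hoxb cluster (chromosome 11, 96194316 to 96368254), 9 of the Hoxc cluster (chromosome 15, 102921131 to 103036856) and 9 of the Hoxd cluster (chromosome 2, 74668225 to 74765142), all in GRCm38.p6. Hoxc12 and Hoxc13 had 0 unique molecular identifiers (UMIs, the tags that count single RNA molecules) in all 8 libraries, and the other 37 genes had at least 1.

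Hox genes encode homeodomain transcription factors that give cells their place along the head-to-tail axis of the embryo. Within each cluster the genes lie in the order in which they are used along that axis. The low-numbered genes are called anterior, the middle ones central and the high-numbered ones posterior, and genes of the same number in different clusters are paralogs. In the gut the posterior genes mark the hindgut, from which the distal colon forms, and both the endodermal epithelium and the mesoderm around it keep regional Hox codes in the adult. Here paralog groups 9 to 13 (16 genes) are called posterior and paralog groups 1 to 8 (23 genes) anterior and central.

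All mice were of the C57BL/6 strain, and Lgr5-eGFP-ires-CreERT2 mice on that background were also used for the sorting. The 8 libraries were 1 single-cell library of sorted small intestinal tissue, 1 of sorted large intestinal tissue, 1 of small intestinal organoids grown alone, 1 of small intestinal organoids in coculture, and 2 Visium sections of each tissue. The tissue libraries were enriched by sorting for LGR5+ stem cells and for CD31+ PDPN+ LYVE1+ lymphatic endothelial cells, so shares of cell types describe the sort. The organoids were at passage 1, with 16 wells pooled for each library and 100000 epithelial cells sorted, and what they were cocultured with was not named. The sections, labelled WT (wild type) in their titles, were 10 µm thick and were technical duplicates, and ages were not given in the sources used here. With 1 library per tissue or condition no test between them was possible, so every difference below is between libraries or sections, and the intervals cover counting error only.

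Depth ran from 24356162 to 142499881 UMIs per library, and the Hox genes together had from 499 UMIs in the control organoids to 65683 in the large intestinal tissue. The 2 tissue libraries shared 25 cell barcodes. Labelled tissues were checked by regional genes. Levels are in CPM, UMIs per 1000000 UMIs of the same cells or section. Car1, a carbonic anhydrase of the colon, had 1337 CPM in large intestinal epithelium and 0 in small intestinal epithelium, and Defa24, a Paneth cell defensin, had 0.0298 CPM and 70987 CPM. Aqp8, a water channel of colonocytes, reached 891 and 952 CPM in sections of large intestine but 19.1 CPM in the sorted large intestinal epithelium. Apoa1, Alpi and Slc37a2 also followed their tissue. Ceacam20, listed as a large intestinal gene, went the other way, at 15.7 CPM in large and 34.2 CPM in small intestinal epithelium. It was lower in sections of large intestine too. Fabp6, listed as a small intestinal gene, had 84.2 CPM in large and 1695 CPM in small intestinal epithelium. RNA released by lysed cells was gauged by Car1, which reached 5.06% of its epithelial level in large intestinal stroma, 9.37% in endothelium and 4.86% in immune cells.

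Where a Hox gene starts is shown for 4 genes whose levels separated the gut regions or epithelial states described below. The sequences are the 250 bases before the RefSeq start of Hoxa13 (chr6:52260881-52261130, minus strand) and Hoxd13 (chr2:74667975-74668224, plus strand), both posterior, and of Hoxb8 (chr11:96281655-96281904, plus strand) and Hoxd4 (chr2:74721728-74721977, plus strand), both central, in GRCm38.p6 and read 5′ to 3′ on the gene's strand. Capitals mark the letters TTTAT on either strand, the core of the motif bound by the caudal factors Cdx1 and Cdx2, which act upstream of Hox genes in the embryo.
Hoxa13: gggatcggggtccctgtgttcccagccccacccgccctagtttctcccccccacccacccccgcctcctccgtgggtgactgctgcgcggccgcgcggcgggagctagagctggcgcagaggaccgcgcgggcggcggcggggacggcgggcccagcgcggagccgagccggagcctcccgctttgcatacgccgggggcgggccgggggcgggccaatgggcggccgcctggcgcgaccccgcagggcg
Hoxd13: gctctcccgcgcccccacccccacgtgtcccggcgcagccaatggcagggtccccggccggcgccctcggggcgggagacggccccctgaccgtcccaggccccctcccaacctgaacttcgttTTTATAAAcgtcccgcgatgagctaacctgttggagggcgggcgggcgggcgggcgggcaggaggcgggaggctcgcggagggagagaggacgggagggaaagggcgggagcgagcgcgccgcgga
Hoxb8: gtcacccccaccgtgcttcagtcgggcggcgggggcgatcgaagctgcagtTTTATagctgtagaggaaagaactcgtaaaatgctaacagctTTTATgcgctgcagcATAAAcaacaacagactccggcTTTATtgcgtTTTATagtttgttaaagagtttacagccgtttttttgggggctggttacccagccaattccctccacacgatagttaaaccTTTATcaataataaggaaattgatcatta
Hoxd4: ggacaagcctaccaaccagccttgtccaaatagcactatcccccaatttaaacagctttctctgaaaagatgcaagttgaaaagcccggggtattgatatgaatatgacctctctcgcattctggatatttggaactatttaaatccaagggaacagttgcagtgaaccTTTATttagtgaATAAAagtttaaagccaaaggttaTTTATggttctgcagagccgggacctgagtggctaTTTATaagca
The Hoxb8 window held 6 matches, that of Hoxd4 held 4, that of Hoxd13 held 2 and that of Hoxa13 held 0. Of all 32851 promoter windows of this length, 37.3% held at least 1 match and 0.393% held 6 or more. Among the 24 windows of Hox genes in the table, which cover 22 genes, 37.5% held a match. The windows of Hoxa13 and Hoxd13 had 35 and 31 CpG dinucleotides, against 12 for Hoxb8 and 3 for Hoxd4. The median was 6 over all promoter windows and 12.5 over the 24 windows of Hox genes. A match describes the letters only, and binding was not measured.

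The first comparison asked how the Hox genes of the epithelium differed between small and large intestine. It set the summed UMIs of 3943 large intestinal epithelial cells (100808968 UMIs) against those of 1562 small intestinal ones (45286455 UMIs). The 39 genes together reached 508.5 CPM in the large and 19.5 CPM in the small intestine. The posterior sum was 292 CPM in the large and 5.21 CPM in the small intestine, for a log2 ratio of 5.81 with a 95% counting interval of 5.63 to 6.00. The anterior and central sum was 216 against 14.3 CPM, for a log2 ratio of 3.92 (3.804 to 4.03). Of the 27 members with at least 20 UMIs, 27 were at least 2-fold higher in the large intestine and 0 were at least 2-fold lower, against 15.8% and 10% of the 15554 genes measured. Their median log2 ratio was 4.24, where that of all genes was 0.27.

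**Figure D1:**
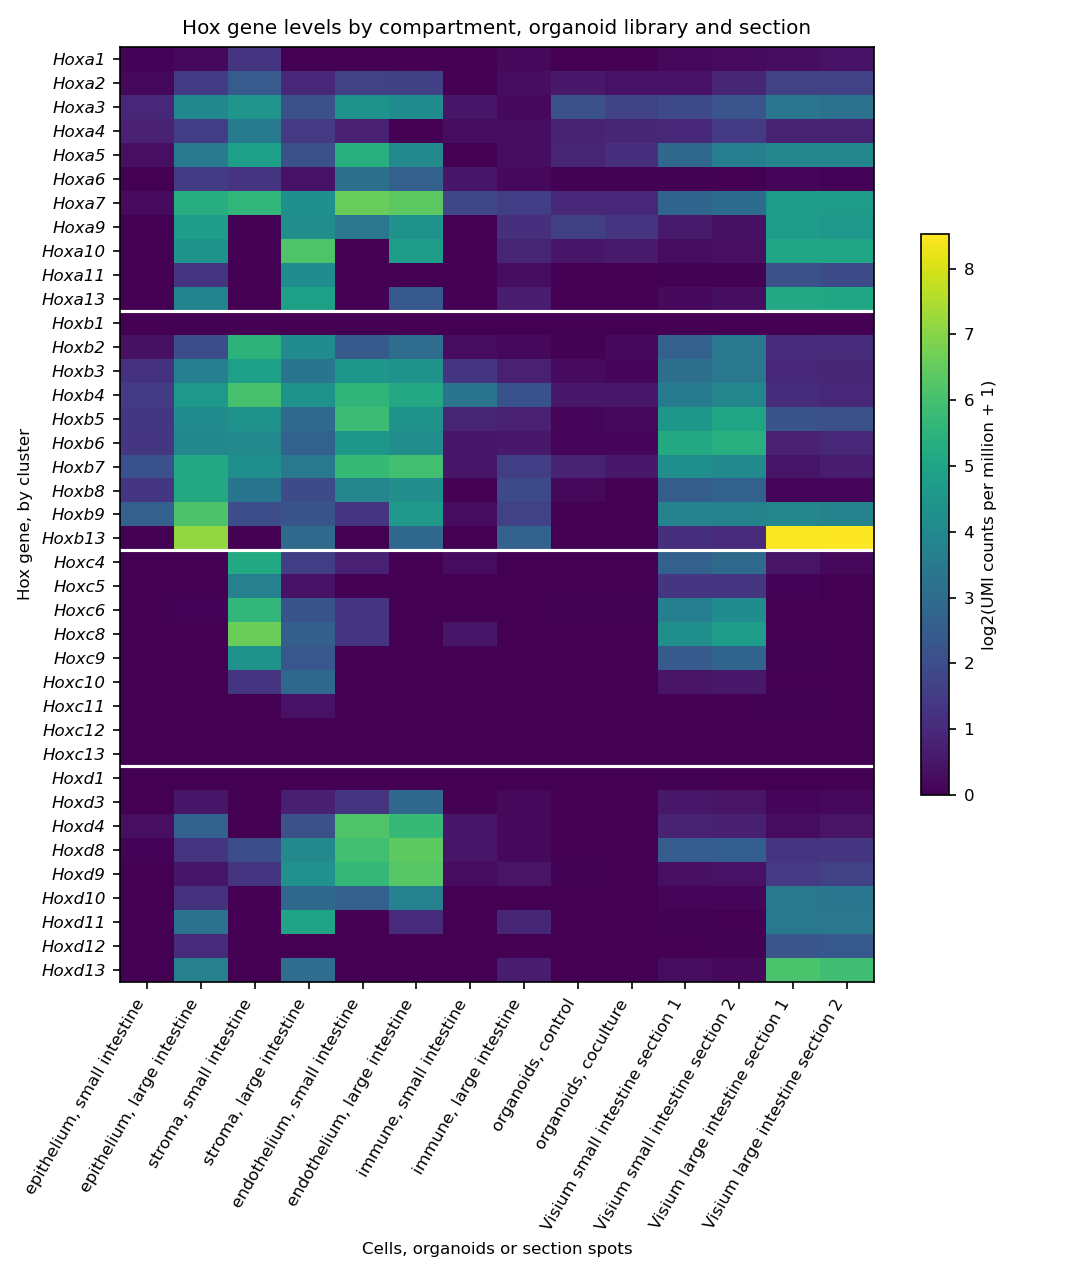
Levels of the 39 Hox genes (rows, grouped by cluster) in the cell compartments of the tissue libraries, the organoid libraries and the Visium sections (columns), as log2(CPM + 1). Small intestinal epithelium and both organoid libraries are dark, with no gene above 5.15 CPM, large intestinal epithelium is bright in Hoxa, Hoxb and posterior Hoxd genes, and Hoxc genes appear in small intestinal stroma and sections.

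Posterior genes were the most one-sided. Hoxb13, the last gene of the Hoxb cluster and a factor of the hindgut and prostate, had 14126 UMIs in large intestinal epithelium (140 CPM) and 0 in small intestinal epithelium, at least 2115-fold higher. No other Hox gene was as abundant in the large intestinal epithelium. Hoxa13 and Hoxd13, which act together in hindgut and digit development, had 13.3 and 12.04 CPM against 0 UMIs each, at least 200.1-fold and at least 182-fold higher. Hoxa10, of the Abdominal-B related group, had 19.5 CPM against 0 UMIs and was at least 294-fold higher, and Hoxd11, a limb and kidney factor, had 8.35 CPM against 0 UMIs and was at least 126-fold higher. Hoxa11, Hoxd10 and Hoxd12 also had 0 UMIs in small intestinal epithelium and from 1.01 to 1.43 CPM in large intestinal epithelium. Hoxa9, a blood and limb factor, had 25.6 CPM against 1 UMI, and with that count set to 3 its log2 ratio was 8.597 (interval 7.70 to 15.49). The posterior gene that both tissues shared was Hoxb9, with 69.2 CPM in large and 5.15 CPM in small intestinal epithelium, a log2 ratio of 3.75 (3.56 to 3.94).

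Pooled over all large intestinal epithelial cells, the central Hoxb genes were higher by similar amounts, but the excess lay in only some of the cell clusters described below. Hoxb3, Hoxb4, Hoxb5, Hoxb6 and Hoxb7 had 1.37, 1.81, 1.59, 1.55 and 3.40 CPM in small and 11.8, 22.5, 16.5, 14.95 and 35.8 CPM in large intestinal epithelium. Their log2 ratios lay between 3.11 (Hoxb3) and 3.64 (Hoxb4). Hoxb8 differed more, with 1.57 and 34.3 CPM, and Hoxb2, known for hindbrain patterning, had 0.309 and 3.10 CPM. In the Hoxa cluster the ratios were less even. Hoxa7 went from 0.199 to 39.1 CPM, a 197-fold difference, Hoxa5, which patterns lung and gut mesenchyme, from 0.265 to 10.0 CPM, and Hoxa3, a pharyngeal factor, from 0.927 to 14.7 CPM. Hoxa4 differed least among the 27, with 0.729 and 2.01 CPM and a log2 ratio of 1.47 (0.93 to 2.04). The difference of Hoxa4 was 0.60 when each cell's CPM was averaged in place of summed UMIs. Of the Hoxd genes below the posterior groups, Hoxd4 had 0.287 and 5.43 CPM and Hoxd8 0.0662 and 1.45 CPM. The remaining members past 2-fold were Hoxa2 (log2 ratio 3.75), Hoxa6 (188 against 0 UMIs), Hoxd3 (42 against 0 UMIs) and Hoxd9 (41 UMIs against 1). The Hoxc cluster was close to silent in both epithelia, where no Hoxc gene had more than 7 UMIs.

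**Figure D2:**
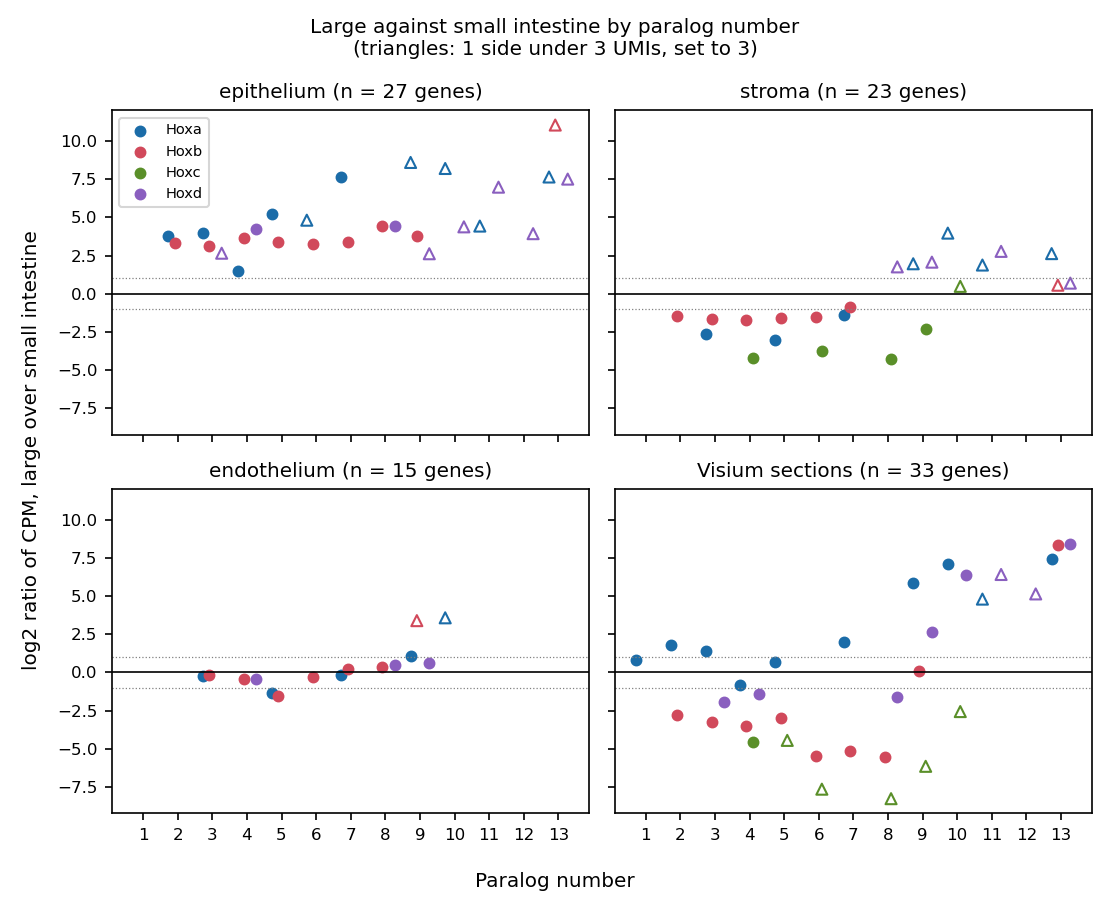
Log2 ratio of CPM, large over small intestine, for each Hox gene with at least 20 UMIs, by paralog number and cluster, in epithelium, stroma, endothelium and Visium sections. Triangles have fewer than 3 UMIs on 1 side, set to 3, and dotted lines mark 2-fold. All 27 epithelial points lie above 2-fold, while in stroma and sections genes numbered 2 to 7 of the Hoxb cluster lie below 0 and most genes numbered 9 to 13 above it.

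The large intestinal epithelium was not uniform in its Hox genes. It fell into 20 clusters, which had been made without any Hox gene. In 8 clusters (1432 cells) Hoxb13 was high, at 237 to 456 CPM, and Hoxb2 to Hoxb8 summed to between 3.96 and 11.5 CPM. In 8 others (1907 cells) Hoxb2 to Hoxb8 summed to between 67.6 and 305 CPM and Hoxb13 lay between 5.10 and 45.7 CPM. These sets were chosen after the values were seen, at 20 CPM of Hoxb2 to Hoxb8 and 50 CPM of Hoxb13, so the levels of those 8 genes only describe the choice. The value just inside the first limit was 11.5 CPM and just outside 35.9 CPM, and around the second they were 45.7 and 60.1 CPM. The last 4 clusters (604 cells) held both, with Hoxb13 at 60.1 to 225 CPM and Hoxb2 to Hoxb8 at 35.9 to 363 CPM. They were a tuft-like cluster, an enteroendocrine-like cluster led by Gcg and Pyy, and 2 clusters whose median depth was 1356 and 1323 UMIs per cell. Hoxb3 to Hoxb7 exceeded their small intestinal level in one set and not in the other. Hoxb3, Hoxb4, Hoxb5, Hoxb6 and Hoxb7 had 0.521, 1.19, 1.27, 1.12 and 1.76 CPM in the Hoxb13 clusters, none above the level in small intestinal epithelium, and 19.5, 37.0, 27.04, 24.3 and 58.8 CPM in the clusters with Hoxb2 to Hoxb8. Hoxb8 had 2.01 CPM (81 UMIs) in the Hoxb13 clusters and 56.1 CPM in the others, against 1.57 CPM (71 UMIs) in small intestinal epithelium. Goblet-like and cycling clusters occurred in both sets, 3 and 2 in the Hoxb13 set and 2 and 3 in the other. The cell types of the sets were not the same, however. The stem-like cluster (358 cells) was in the set with Hoxb2 to Hoxb8, at 305 CPM of these genes and 6.81 CPM of Hoxb13, and the Hoxb13 set had no stem-like cluster.

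**Figure D3:**
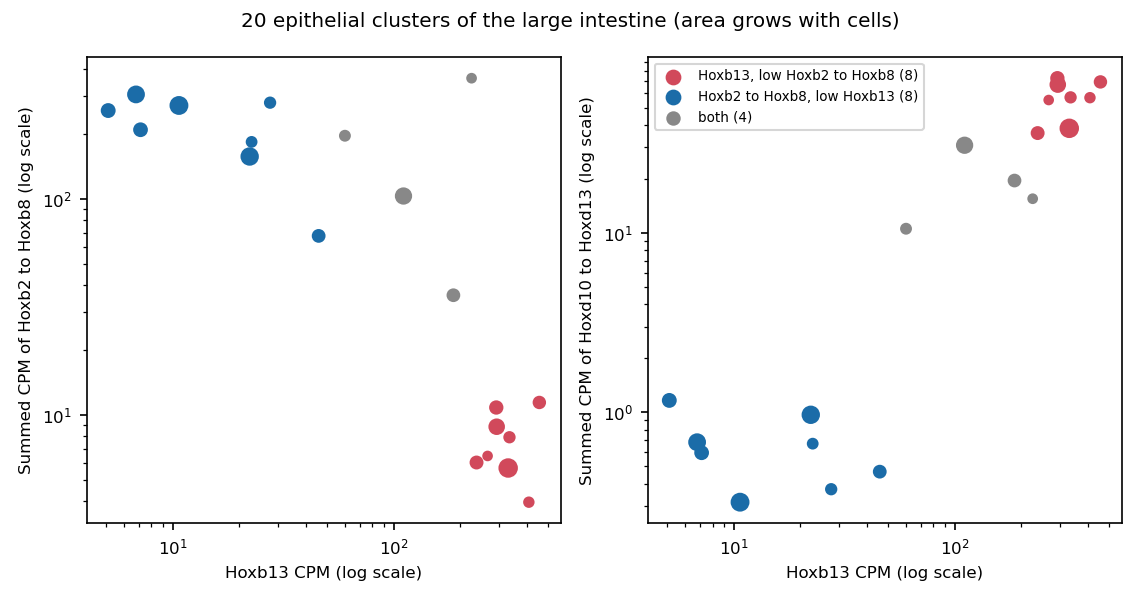
CPM of Hoxb13 (horizontal, log scale) in the 20 epithelial clusters of the large intestine against the summed CPM of Hoxb2 to Hoxb8 (left) and of Hoxd10 to Hoxd13 (right), both on log scales, with point area growing with the number of cells. The 8 red clusters lie at 237 CPM of Hoxb13 or more, and the 8 blue clusters at 45.7 CPM or less have Hoxd10 to Hoxd13 sums of at most 1.16 CPM.

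The posterior Hoxd genes went with Hoxb13, and Hoxd4 went with Hoxb2 to Hoxb8. Hoxd13 had 18.0 to 42.5 CPM over the 8 clusters with Hoxb13 and 0 to 0.704 CPM over the 8 with Hoxb2 to Hoxb8. Pooled, Hoxd13 was 94.0-fold higher in the former (1177 against 18 UMIs) and Hoxd11 97.5-fold (814 against 12). Hoxd10 and Hoxd12 also had cluster ranges that did not overlap. Hoxd4 ran the other way, at 0 to 1.62 CPM against 3.50 to 17.9 CPM, 24.2-fold lower in the Hoxb13 clusters. Hoxa13 was higher with Hoxb13, at 23.7 against 5.87 CPM pooled, and so was Hoxa9, at 42.6 against 13.9 CPM, but cluster ranges of both overlapped. Hoxb9 was lower in the Hoxb13 clusters, at 39.3 against 87.3 CPM, with ranges of 15.2 to 57.3 and 52.2 to 134 CPM that overlapped at their ends. Hoxa7 was alike, at 39.4 and 39.7 CPM. Of the 19 members with at least 20 UMIs that had not been used in the choice, 4 were at least 2-fold higher with ranges apart and 1 was lower, where 0.208% and 0.361% of 14393 genes met those conditions. Over the 20 clusters the Spearman rho of Hoxb13 with summed Hoxb2 to Hoxb8 was -0.78 and with summed Hoxd10 to Hoxd13 was 0.86, as a description of clusters that share 1 library.

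Most single cells fell on one side of the same division. After every epithelial cell was thinned to 10000 UMIs (757 shallower cells were left out), 39.9% of 3186 cells held Hoxb13 without any of Hoxb2 to Hoxb8, 42.8% held Hoxb2 to Hoxb8 without Hoxb13, 4.39% held both and 12.9% neither. Unthinned, the shares were 37.1%, 39.2%, 9.23% and 14.5%. In plasma-like cells, which should lack both, 3.32% of 241 cells held Hoxb13 and 6.22% held Hoxb2 to Hoxb8 at the same depth (median 19760 UMIs before thinning, against 26329 in epithelial cells). The 1400 cells with 3 or more Hoxb13 UMIs had 9.54 CPM of Hoxb2 to Hoxb8, and the 2117 cells without a Hoxb13 UMI had 251 CPM. The 426 cells with 1 or 2 Hoxb13 UMIs lay between them, at 139 CPM, and 39.7% of them held Hoxb2 to Hoxb8. Hoxa7 was at 40.7, 37.2 and 42.4 CPM in these 3 groups of cells. Whether the large intestinal tissue had been taken from more than 1 region was not given in the sources used here.

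Small intestinal epithelial clusters also differed in the Hox genes they carried. Hoxb9 had 0 UMIs in the enterocyte-like clusters led by Adh4 and Reg1 (178 cells) and by Cyp2b10 and Leap2 (61 cells), and 14.3 CPM in that led by Plb1 and Cubn (149 cells). Hoxb2 to Hoxb8 summed to 1.02, 0 and 27.3 CPM in the same clusters. In the goblet-like clusters Hoxb9 lay between 13.2 and 15.9 CPM. Hoxb13 and Hoxd10 to Hoxd13 had 0 UMIs over all 1562 cells.

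The second comparison was made in the stroma, that is in fibroblast-like and smooth muscle or pericyte-like cells. It rested on 416 large intestinal cells (3013733 UMIs) and 90 small intestinal cells (664648 UMIs). Stroma of the small intestine carried anterior and central genes at 512 CPM (interval 459 to 569) and posterior ones at 25.6 CPM, and stroma of the large intestine 128 and 217 CPM. The posterior sum was higher in the large intestine by a log2 ratio of 3.08 (2.39 to 3.87) and the anterior and central sum was lower by a log2 ratio of -2.002 (-2.22 to -1.79). Of 23 members with at least 20 UMIs, 7 were at least 2-fold higher in the large intestine and 12 at least 2-fold lower, against 6.98% and 7.32% of 10631 genes. The pools differed in make-up, with 302 fibroblast-like and 114 smooth muscle or pericyte-like cells in the large and 33 and 57 in the small intestine. Within fibroblast-like cells 2 of 16 measured members were at least 2-fold higher and 6 lower, against 7.41% and 6.75% of 9422 genes. Within smooth muscle or pericyte-like cells 5 of 10 were higher and 5 lower, against 11.2% and 10.2% of 7233 genes. At a minimum of 50 UMIs the stroma had 6 of 10 members higher and 4 lower, against 6.68% and 4.48% of 8034 genes.

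The Hoxc genes, near 0 in epithelium, summed to 217 CPM in small intestinal stroma, beside 202 CPM of the Hoxb genes. Hoxc8, a trunk mesoderm factor, had 97.8 CPM there (65 UMIs) and 4.98 CPM in large intestinal stroma (15 UMIs), a log2 ratio of -4.30 (-5.21 to -3.47). Hoxc6 had 49.7 and 3.65 CPM, Hoxc4 36.1 and 1.99 CPM, and Hoxc9 19.6 and 3.98 CPM. Hoxc10 was the exception among them, with 19 UMIs in large and 1 UMI in small intestinal stroma. Hoxb4 had 64.7 and 19.9 CPM, Hoxb2 45.1 and 16.3 CPM, Hoxb3 27.1 and 8.63 CPM, and Hoxa7 48.1 and 18.2 CPM. Hoxa5 fell from 27.1 to 3.32 CPM and Hoxa3 from 21.1 to 3.32 CPM, on 18 against 10 and 14 against 10 UMIs. Hoxb5 and Hoxb6, at 13 and 10 UMIs in the small intestine, were lower by log2 ratios of -1.56 and -1.50. Hoxb5 missed 2-fold under the stricter cell filter (-0.60) and with doublets kept (-0.75), Hoxb6 with doublets kept (-0.89) and as a mean of each cell's CPM (-0.55), and Hoxb2 as such a mean (-0.92). Hoxb7 differed by -0.86 with an interval from -1.87 to 0.24.

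Of the posterior genes, 5 with 0 UMIs in small intestinal stroma were past 2-fold in the large intestine. Hoxa10 had 70.7 CPM (213 UMIs), Hoxd11 30.9 CPM, Hoxa13 27.9 CPM, Hoxa9 17.6 CPM and Hoxa11 16.6 CPM. At the floor of 3 UMIs in small intestinal stroma, Hoxa10 was at least 15.7-fold higher, Hoxd11 at least 6.84-fold, Hoxa13 at least 6.18-fold, Hoxa9 at least 3.90-fold and Hoxa11 at least 3.68-fold. Hoxd8 (46 against 2 UMIs) and Hoxd9 (57 against 1 UMI) made up the other 2, with log2 ratios of 1.76 (0.41 to 5.43) and 2.07 (1.12 to 8.98). Some of these genes stood higher in stroma than in epithelium of the same library. Hoxa10 in stroma was at 362% of its epithelial level, Hoxd11 at 369% and Hoxa13 at 210%, while Hoxa9 was below it. Hoxb13 in stroma was at 4.74% of its epithelial level, close to the 5.06% of Car1, and Hoxb9 was at 5.27%.

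Hoxa10 and Hoxc8 split the tissues in both stromal classes. In smooth muscle or pericyte-like cells (114 large, 57 small intestinal) Hoxa10 had 127 CPM against 0 UMIs and Hoxc8 6.89 against 122.5 CPM. In fibroblast-like cells (302 and 33) Hoxa10 had 52.9 CPM against 0 UMIs and Hoxc8 4.37 against 54.1 CPM. Large intestinal fibroblast-like cells were themselves divided. The cluster led by Pcolce2 and C7 (190 cells) had 123 CPM of Hoxb2 to Hoxb8 and 30.8 CPM of Hoxd10 to Hoxd13, and the cluster led by Edil3 and Ccn2 (112 cells) 9.31 and 71.0 CPM. The small intestinal fibroblast-like cells were 1 cluster, led by Pcolce2 and Inmt, with 221 CPM of Hoxb2 to Hoxb8. Different clusters also made up the smooth muscle or pericyte-like cells of each tissue. Those of the small intestine were 1 cluster led by Tagln and Rgs5, with 186 CPM of Hoxb2 to Hoxb8 (79 UMIs). In the large intestine a cluster led by Actg2 and Cnn1 (95 cells) had 4.699 CPM (3 UMIs), and one led by Gm13861 and Map3k7cl (19 cells) had 262 CPM (23 UMIs). Of these 2 clusters only the former was below the small intestinal level.

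Stroma and epithelium of the same library were set side by side as well. In the small intestine the 39 genes summed to 537 CPM in stroma and 19.5 CPM in epithelium, a log2 ratio of 4.78 (4.60 to 4.96). In the large intestine they summed to 345 CPM in stroma and 508.5 CPM in epithelium, a log2 ratio of -0.56 (-0.65 to -0.47). Among members with at least 20 UMIs in both comparisons, 8 differed by at least 2-fold in opposite directions, Hoxa3, Hoxa5, Hoxa7 and Hoxb2 to Hoxb6. Their pooled epithelial level was higher in the large intestine and their stromal level higher in the small intestine. Hoxb7 went the same way but under 2-fold in stroma, at 9.95 CPM in large and 18.1 CPM in small intestine. For Hoxb2 to Hoxb6 the epithelial direction held in the pool and in the clusters with Hoxb2 to Hoxb8. It did not hold in the Hoxb13 clusters, where they had 0.0496 to 1.27 CPM, none above small intestinal epithelium. The Hoxb13 clusters were chosen for a low sum of Hoxb2 to Hoxb8, so these levels only describe the choice. Hoxa3, Hoxa5 and Hoxa7 were higher than in small intestinal epithelium in both sets.

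Endothelium differed less. It comprised 293 cells of the large intestine (965630 UMIs) and 387 of the small intestine (1381960 UMIs), of which 206 and 348 were lymphatic endothelial-like. The 39 genes summed to 611 and 583 CPM. The posterior sum was higher in the large intestine, at 171 against 66.6 CPM, with a log2 ratio of 1.36 (0.98 to 1.74), and the anterior and central sum was 440 against 516 CPM, with a log2 ratio of -0.23 (-0.41 to -0.05). Of 15 members with at least 20 UMIs, 3 were at least 2-fold higher and 2 at least 2-fold lower in the large intestine, against 7.41% and 7.14% of 9328 genes. These counts moved with the settings. At a minimum of 50 UMIs 0 of 8 members were higher and 2 lower (5.43% and 5.83% of all genes), at 1 UMI 6 of 22 and 2 (9.77% and 7.25%), and with doublets kept 5 of 17 and 1 (9.07% and 7.78%). Under the loose cell filter 3 of 16 were higher and 1 lower (8.16% and 6.37%), and under the strict one 3 of 15 and 1 (7.78% and 8.25%). In lymphatic endothelial-like cells 1 of 12 was higher and 2 lower (4.94% and 8.01%), and in blood endothelial-like cells 1 of 5 was higher and 1 lower (13% and 6.43%). The log2 ratio of the posterior sum was 1.22 in the former and 3.07 in the latter.

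The 5 endothelial genes with most UMIs differed by less than 2-fold between the tissues. Hoxa7 had 82.8 CPM in large and 92.6 CPM in small intestinal endothelium, and the log2 ratio was -0.16 (-0.58 to 0.25). Hoxd4 had 51.8 and 70.9 CPM, and Hoxb7 60.1 and 51.4 CPM, with intervals that included 0. Hoxd8 had 83.9 and 60.8 CPM (log2 ratio 0.46, 0.01 to 0.92) and Hoxd9 78.7 and 50.7 CPM (0.64, 0.15 to 1.13). Hoxd4, Hoxd8 and Hoxd9 had at most 5.43 CPM in either epithelium. Past 2-fold, Hoxa10 had 25 UMIs against 0 and was at least 11.9-fold higher, Hoxb9 had 22 UMIs against 2, and Hoxa9 had 19.7 against 9.41 CPM with an interval that reached -0.03. Blood endothelial-like cells were 87 of 293 large and 39 of 387 small intestinal cells. In these 87 cells Hoxa10, Hoxb9 and Hoxa9 had 52.8, 42.7 and 42.7 CPM. In lymphatic endothelial-like clusters Hoxa9 ran the other way, at 2.30 and 7.52 CPM in large and 10.7 and 8.53 CPM in small intestine. Hoxb9 in large intestinal endothelium was at 32.9% of its epithelial level, where Car1 was at 9.37% and Hoxb13 at 4.43%. Hoxa5, which limits vessel sprouting, was lower, at 15.5 against 39.8 CPM, and Hoxb5, a factor of endothelial precursors, at 19.7 against 56.4 CPM. Hoxa5 missed 2-fold under the stricter filter (-0.82) and with doublets kept (-0.91), Hoxb5 under the loose filter (-0.91), and Hoxa9 at the higher clustering resolution (0.97) and as a mean of each cell's CPM (0.35).

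The 2 endothelial classes were also read apart, and the difference between them was not tested. Within lymphatic endothelial-like cells Hoxd9 had 120 CPM in large and 56.6 CPM in small intestine (log2 ratio 1.08, 0.58 to 1.58), and Hoxa5 had 8.81 and 39.6 CPM (-2.17, -3.86 to -0.85). Within blood endothelial-like cells (87 and 39) Hoxa10 had 52.8 CPM against 0 UMIs, at least 2.56-fold higher, and Hoxb4 had 37.7 and 82.6 CPM (-1.13, -2.33 to 0.10).

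Visium sections measured the same genes in whole tissue slices, where fewer cells of a type and less RNA per cell cannot be told apart. Large intestinal sections had 620 and 616 CPM of the 39 genes and small intestinal sections 182 and 231 CPM. The posterior sum was higher in the large intestine by a log2 ratio of 4.72 and the anterior and central sum lower by a log2 ratio of -1.59. Of 33 members with at least 20 UMIs, 13 were at least 2-fold higher in the large intestine with sections apart and 16 at least 2-fold lower, against 14% and 15.9% of 16839 genes. The sections of each tissue are duplicates, so these counts say nothing of the spread between mice.

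**Figure D4:**
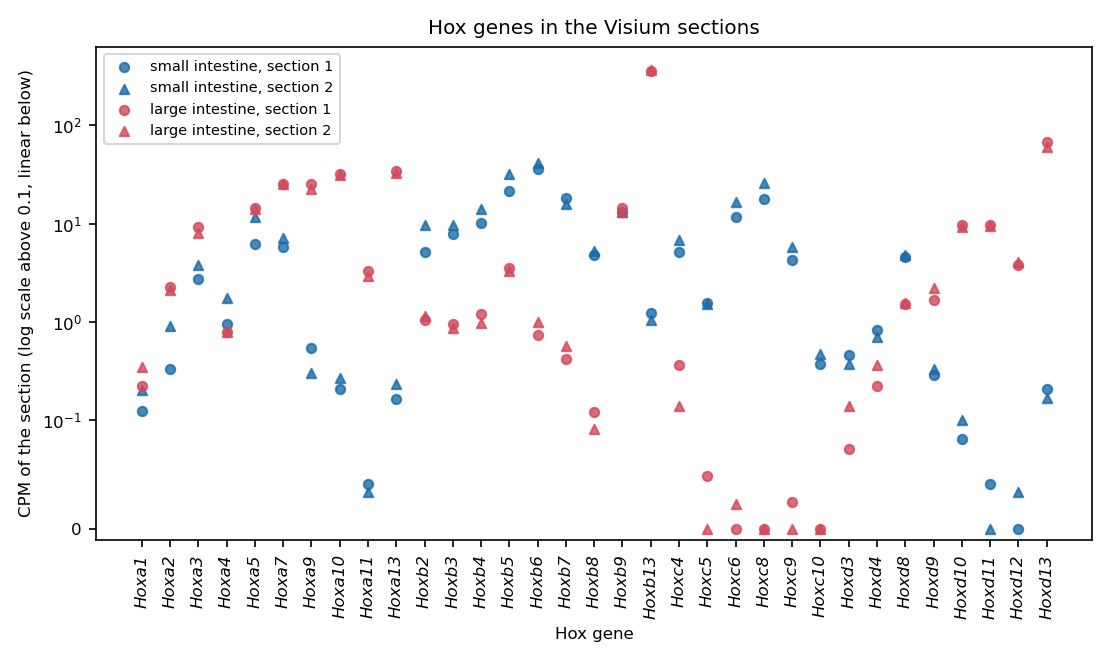
CPM of each Hox gene with at least 20 UMIs in the 4 Visium sections (circles and triangles, sections 1 and 2; blue, small intestine; red, large intestine), on a scale that is logarithmic above 0.1 CPM and linear below. Red points stand above blue for Hoxb13, Hoxd13 and Hoxa13, below blue for Hoxb2 to Hoxb8 and the Hoxc genes, and level with blue for Hoxb9.

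Hoxb13 had 1.23 and 1.03 CPM in the small intestinal sections and 356 and 368 CPM in those of large intestine, a 320.0-fold difference. Hoxd13 had 0.205 and 0.166 CPM against 68.1 and 59.9 CPM, and Hoxa13 0.164 and 0.233 CPM against 34.3 and 32.6 CPM. These 3 genes of the last paralog group differed by 344-fold for Hoxd13 and 168-fold for Hoxa13. Hoxa10 had 0.205 and 0.266 CPM against 31.8 and 31.5 CPM, and Hoxa9 0.534 and 0.299 CPM against 25.1 and 22.3 CPM. Hoxd10, Hoxd11 and Hoxd12 had from 3.78 to 9.77 CPM in the large and at most 0.0997 CPM in the small intestinal sections. The other genes past 2-fold upwards were Hoxa2 (3.55-fold), Hoxa3 (2.68-fold), Hoxa7 (3.95-fold), Hoxa11 (136 and 128 UMIs against 1 and 1) and Hoxd9 (6.23-fold).

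Small intestinal sections were marked by central Hoxb and Hoxc genes. Hoxb6 had 35.9 and 41.0 CPM in small and 0.727 and 0.981 CPM in large intestinal sections, 45.0-fold lower in the latter. Hoxb5 had 21.6 and 32.1 CPM against 3.54 and 3.31 CPM, and Hoxb7 18.1 and 15.9 CPM against 0.412 and 0.570 CPM. Hoxb8 was 47.1-fold lower, Hoxb4 11.4-fold, Hoxb3 9.62-fold and Hoxb2 6.79-fold in the large intestine. Hoxc8 had 17.9 and 25.6 CPM in the small intestine and 0 UMIs in both large intestinal sections, at least 308-fold lower. Hoxc6, Hoxc9 and Hoxc5 had 0 to 2 UMIs per large intestinal section and from 38 to 499 UMIs per small intestinal section. Hoxc4 was 23.9-fold lower, and Hoxc10 had 9 and 14 UMIs against 0. Hoxd3, Hoxd4 and Hoxd8 were also lower, by 3.90-fold, 2.60-fold and 3.06-fold. Hoxb9 was nearly the same in all sections, at 13.02 and 12.99 CPM against 14.4 and 13.1 CPM.

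Sections and sorted epithelium thus held different amounts of the central Hoxb genes in both tissues. In the small intestine Hoxb6 had 35.9 and 41.0 CPM in the sections and 1.55 CPM in the sorted epithelium. Hoxb7 had 18.1 and 15.9 CPM there and 3.40 CPM in the sorted epithelium. Hoxb2 to Hoxb8 each had at most 3.54 CPM in the large intestinal sections, while Hoxb7 and Hoxb8 alone had 35.8 and 34.3 CPM in the sorted epithelium. Hoxb13 had 356 and 368 CPM in the sections, 140 CPM in the sorted epithelium and 321 CPM in its 8 Hoxb13 clusters. Hoxd13 had 68.1 and 59.9 CPM in the sections and 29.2 CPM in those clusters. The preparations differ in sort and chemistry, and the stretch of intestine taken for each was not given in the sources used here, so these cannot be told apart.

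The position of Hox RNA in the wall was then described by muscle. In each section the 25% of spots with the highest share of UMIs from 8 smooth muscle genes (muscle-rich) were set against the 25% with the lowest (muscle-poor). The median share was 4.60% and 5.25% in muscle-rich spots of small intestine and 1.61% and 1.42% in those of large intestine, against at most 0.134% in muscle-poor spots of any section. In the small intestine the 39 genes together were higher in muscle-rich spots by log2 ratios of 1.84 and 2.03. In the large intestine they were level, at -0.05 and 0.00. In small intestinal sections 15 of 22 members with at least 20 UMIs were at least 2-fold higher in muscle-rich spots of both sections and 0 were lower, against 31.6% and 10.8% of 14589 genes. Their median log2 ratio was 2.32, where that of all genes was 0.50. In large intestinal sections 10 of 23 were higher and 0 were lower, against 21.7% and 2.07% of 14750 genes, with medians of 1.07 and 0.35.

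**Figure D5:**
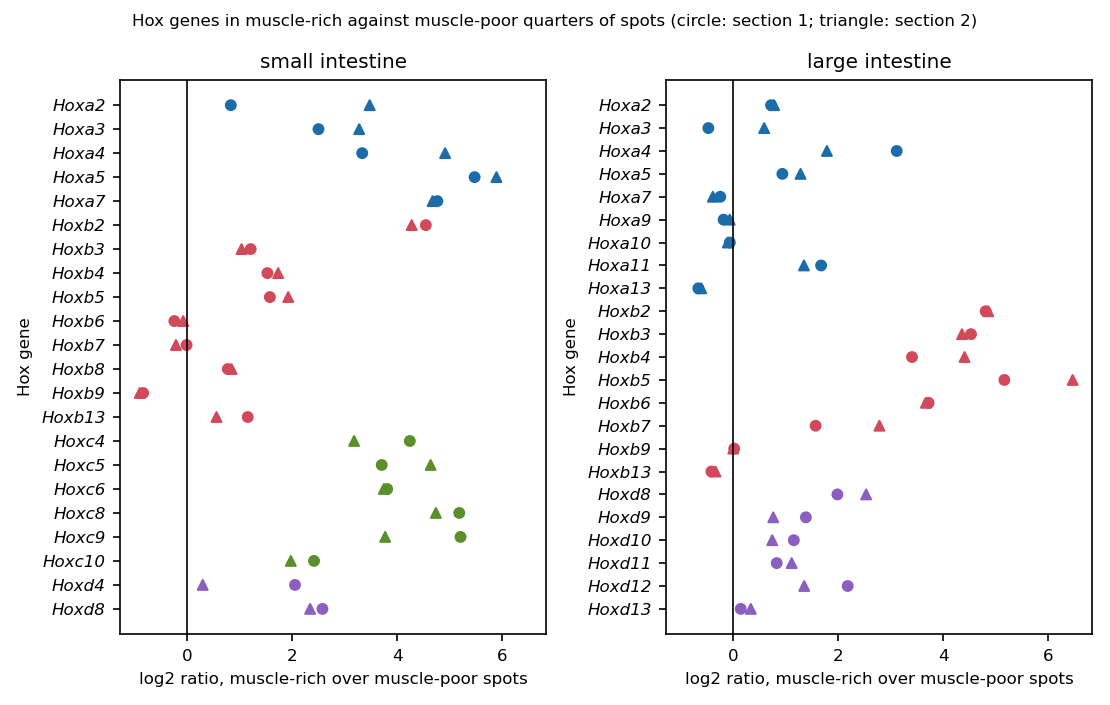
Log2 ratio of CPM, muscle-rich over muscle-poor spots (the 25% with the highest and lowest muscle share), for each Hox gene with at least 20 UMIs (circles, section 1; triangles, section 2), in small (left) and large (right) intestine. Hoxc genes lie between 1.97 and 5.20 in the small intestine, Hoxb2 to Hoxb6 lie above 3 in the large intestine, and Hoxb13 and Hoxa13 lie below 0 there.

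In the small intestine Hoxa and Hoxc genes had the largest ratios. Hoxc8 had 69.1 and 92.0 CPM in muscle-rich and 1.91 and 3.46 CPM in muscle-poor spots, log2 ratios of 5.18 and 4.73. Hoxa5 had ratios of 5.47 and 5.89, Hoxa7 of 4.76 and 4.67, Hoxb2 of 4.54 and 4.27 and Hoxc6 of 3.81 and 3.74. Hoxc4, Hoxc5, Hoxc9 and Hoxa4 lay between 3.18 and 5.20 in both sections. Hoxb3, Hoxb4, Hoxb5, Hoxa3, Hoxc10 and Hoxd8 were also past 2-fold in both. Hoxb6 and Hoxb7 were level, with 25.9 and 32.9 CPM against 30.7 and 34.7 CPM for Hoxb6 and ratios of -0.01 and -0.22 for Hoxb7. Hoxb9 was higher in muscle-poor spots, with 7.57 and 7.50 CPM against 13.6 and 14.1 CPM. In muscle-poor spots of large intestine Hoxb6 had 0.227 and 0.364 CPM, below the 30.7 and 34.7 CPM in those of small intestine. Hoxb7 had 0.379 and 0.291 CPM in the former and 17.5 and 17.4 CPM in the latter. In sorted epithelium both genes had been higher in the large intestine, and the reason was not tested.

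In the large intestine the central Hoxb genes, low in the sections as a whole, were found in muscle-rich spots. Hoxb5 had 21.7 and 19.3 CPM in muscle-rich and 0.606 and 0.146 CPM in muscle-poor spots, and Hoxb2 6.36 and 6.32 CPM against 0.151 and 0.146 CPM. Hoxb3, Hoxb4 and Hoxb6 had log2 ratios between 3.40 and 4.53, and Hoxb7 1.57 and 2.78. Hoxa4, Hoxa11, Hoxd8 and Hoxd12 were past 2-fold in both sections too. Posterior genes were divided in these spots. Hoxa11 and Hoxd12 were among those past 2-fold, and Hoxd9, Hoxd10 and Hoxd11 had ratios between 0.74 and 1.38, while others were level or lower. Hoxb13 had 283 and 317 CPM in muscle-rich and 378 and 402 CPM in muscle-poor spots, log2 ratios of -0.42 and -0.34, and Hoxa13 had ratios of -0.67 and -0.61. Hoxa10 had ratios of -0.07 and -0.11, and Hoxd13 0.14 and 0.33. Muscle-rich spots were shallower than muscle-poor ones, with 11955006 against 22503980 UMIs over the small intestinal sections and 11836823 against 26941139 over the large intestinal ones, and the part of depth in these ratios was not tested.

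Organoids carried little Hox RNA. The 39 genes summed to 11.0 CPM in the control (538 cells) and 9.25 CPM in the coculture (1028 cells), a log2 ratio of -0.25 (-0.41 to -0.09). Of 9 members with at least 20 UMIs, 0 were at least 2-fold higher and 0 at least 2-fold lower in coculture, against 2.76% and 5.05% of 13953 genes. Hoxa3, the most abundant, had 3.35 and 2.39 CPM (-0.49, -0.79 to -0.18), Hoxa9 2.06 and 1.43 CPM (-0.52, -0.91 to -0.12), and Hoxb7 0.809 and 0.474 CPM (-0.77, -1.44 to -0.09). Hoxa5 had 0.901 and 1.196 CPM and Hoxa7 0.924 and 0.939 CPM, with intervals that included 0. Of the 89 control UMIs of Hoxa9, which came from 14 cells, 33.7% lay in 1 cell. Without the cell with most UMIs of the gene in each library, Hoxa9 had 1.37 and 1.32 CPM (-0.05, -0.51 to 0.42), Hoxb7 a ratio of -0.72 (-1.43 to 0.01) and Hoxa3 a ratio of -0.47 (-0.78 to -0.16).

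Against small intestinal epithelium from tissue, the control organoids had Hoxa genes higher and Hoxb genes lower. The 39 genes summed to 11.0 CPM in organoids and 19.5 CPM in tissue, a log2 ratio of -0.82 (-0.99 to -0.66). Of 13 members with at least 20 UMIs, 5 were at least 2-fold higher and 7 at least 2-fold lower, against 12.4% and 17.9% of 14220 genes. The 5 were Hoxa2, Hoxa3, Hoxa5, Hoxa7 and Hoxa9. Hoxa3 had 3.35 CPM in organoids and 0.927 CPM in tissue, and Hoxa9 89 UMIs (2.06 CPM) against 1. The 7 were Hoxb3 to Hoxb9. Hoxb9 had 0 UMIs in 43279721 and was at least 74.2-fold lower, and Hoxb5, Hoxb6 and Hoxb8 had 5, 4 and 6 UMIs against 72, 70 and 71. Hoxa4 was level, at 0.786 and 0.729 CPM. Fabp6, one of the small intestinal check genes, had 0.924 CPM in control organoids and 1695 CPM in tissue epithelium. The stretch of small intestine taken for each was not given in the sources used here. Culture, sort, library, cell types and stretch of intestine cannot be told apart in this comparison.

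Partners and regulators of Hox genes were read from fixed lists. The TALE homeodomain genes, among them the Meis genes, encode cofactors that bind DNA with Hox proteins. In epithelium 0 of 7 measured were at least 2-fold higher in the large intestine and 1 lower, against 15.8% and 10% of all genes. The gene that was lower was Meis2, at 0.149 against 1.68 CPM. In stroma 0 of 8 were higher and 1 was lower, Meis1, at 58.4 against 133.9 CPM, where 6.98% and 7.32% of all genes were. Within fibroblast-like cells 0 of 8 were higher and 4 lower, against 7.41% and 6.75% of all genes. Within smooth muscle or pericyte-like cells 1 of 6 was higher and 3 lower, against 11.2% and 10.2%. In endothelium 0 of 5 were higher and 1 lower, against 7.41% and 7.14%. The caudal genes Cdx1 and Cdx2 were expressed in both epithelia, at 227 and 117 CPM for Cdx1 (log2 ratio 0.96) and 134 and 107 CPM for Cdx2, and the ParaHox gene Pdx1, a duodenal factor, was lower in the large intestine at 0.139 against 1.19 CPM. In the sections Cdx2 was 2.20-fold lower in the large intestine, at 58.0 and 60.6 against 136.7 and 123.7 CPM, and Cdx1 2.87-fold higher. Pdx1 went the other way there, with 10 and 15 UMIs in large against 0 and 1 in small intestine. Of the 14 Polycomb and trithorax genes, whose products keep Hox genes silent or active, 0 were past 2-fold in epithelium in either direction, where 15.8% of all genes measured were higher and 10% lower. In stroma 0 of 12 were higher and 1 lower, Pcgf2, at 11.3 against 22.6 CPM, where 6.98% and 7.32% of all genes were.

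Of the 10 listed non-coding genes of the Hox clusters, 8 had at least 20 UMIs in epithelium, and all 8 were at least 2-fold higher in the large intestine, against 15.8% of all genes measured. In stroma 1 of 3 was higher (Hoxa11os, 35.5 CPM against 0 UMIs) and 2 were lower (Hotairm1 and Hoxb3os), where 6.98% and 7.32% of all genes were. In endothelium 0 of 3 were higher and 1 was lower (Hoxb3os), where 7.41% and 7.14% of all genes were. Hoxa11os, antisense to Hoxa11, had 31.4 CPM (3161 UMIs) against 0 UMIs, while Hoxa11 itself had 1.43 CPM. Hottip, next to Hoxa13, had 3.12 CPM against 0 UMIs, and Hoxaas3 47.5 against 2.36 CPM. In the sections Hoxa11os had 82.6 and 89.6 CPM in large and 0.493 and 0.233 CPM in small intestine. In the annotation 10 members overlap another member, among them Hoxa3 to Hoxa6, Hoxb3 and Hoxb4, and how shared reads were counted was not given in the sources used here, so their split is uncertain. Strand handling was not given either, so reads of Hoxa11 and Hoxa11os may not be separate.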

How the data were processed

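The deposited files hold UMI counts per gene and barcode, made by the authors with Cell Ranger 6.0.1 (cells) and Space Ranger 1.2.1 (Visium), per the file headers, on mm10 per the submitters' processing notes. Cells needed 500 genes and no more than 20% of UMIs from mitochondrial genes, spots needed 500 UMIs, and Scrublet doublets were removed. Tissue cells were clustered (scanpy 1.11.5, Leiden, resolution 1) without Hox genes and named by marker lists, leaving 513 large intestinal cells in 3 clusters unnamed. UMIs were summed per compartment or section and scaled to 1000000 (CPM). In ratios a count under 3 was set to 3. A ratio whose direction that floor reversed was set to 0, except in ratios of large over small intestinal sections. A 0 count was taken to allow up to 3 counts, a 1-sided 95% limit on which each "at least" fold rests, while the 2-sided interval of a 0 count reaches 3.69 counts. Named members had at least 20 UMIs and a 2-fold difference, or were among the 5 with most UMIs. UMIs count molecules, so levels were not scaled to length. Intervals are exact 95% Poisson intervals, covering counting error only. Ratios were tested on simulated data. Members, lists and comparisons were chosen with earlier results of these data known. Sequences are from RefSeq (GRCm38.p6), which held promoters of 22 members. Values of 2 genes outside the Hox clusters are not reported here. Alternatives covered cell filters, doublets, clustering resolution, scaling, the UMI minimum, spot filters and leaving out each section.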

Additional observations from a re-analysis of the deposited data

Results flagged for a closer look

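Among Hox genes with at least 20 UMIs in both comparisons, 8 differed by at least 2-fold in opposite directions in epithelium and stroma. Each was higher in large intestinal epithelium, pooled over its clusters, and lower in large intestinal stroma, and the difference between the 2 log2 ratios was 6.65 for Hoxa3, 8.27 for Hoxa5, 9.02 for Hoxa7, 4.80 for Hoxb2, 4.76 for Hoxb3, 5.34 for Hoxb4, 4.93 for Hoxb5 and 4.78 for Hoxb6. For Hoxb2 to Hoxb6 the epithelial direction held in the pool and in the clusters with Hoxb2 to Hoxb8. In the 8 Hoxb13 clusters these 5 genes had 0.0496, 0.521, 1.19, 1.27 and 1.12 CPM. None was above the 0.309, 1.37, 1.81, 1.59 and 1.55 CPM of small intestinal epithelium. The Hoxb13 clusters were chosen for a low sum of Hoxb2 to Hoxb8, so these levels only describe the choice. With 1 library per tissue the difference was not tested.

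The ratio of the muscle split had one sign in both sections of the small intestine and the other sign in both sections of the large intestine for 4 genes, each of which differed by less than 2-fold in at least 1 of the tissues. The log2 ratio of muscle-rich over muscle-poor spots in small intestine exceeded that in large intestine by 5.04 for Hoxa7 and by 1.23 for Hoxb13, which had 6 to 10 UMIs in each set of small intestinal spots. The same difference was -3.86 for Hoxb6 and -2.29 for Hoxb7, whose small intestinal log2 ratios were close to 0, at -0.25 and -0.08 in the 2 sections for Hoxb6 and at -0.01 and -0.22 for Hoxb7. The sections are technical duplicates and the difference was not tested.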

How the results depend on the processing

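No summed Hox ratio or member past 2-fold changed direction under the alternatives run. All 640 recomputed ratios of members past 2-fold kept their sign and 11 fell under 2-fold. The epithelial posterior ratio was 5.60 under the strict cell filter and 5.57 with median-of-ratios scaling, and the anterior and central one 3.68 with that scaling and 3.46 as a mean of each cell's CPM. The stromal anterior and central ratio was -1.70 (strict), -1.73 (doublets kept), -1.60 (fibroblast-like cells only) and -2.36 (smooth muscle or pericyte-like cells only), classes that held different clusters in each tissue. Stromal members lower in large intestine numbered 4 of 10 measured at 50 UMIs, 6 of 16 in fibroblast-like and 5 of 10 in smooth muscle or pericyte-like cells, and those higher 2 of 16 in fibroblast-like cells. The endothelial anterior and central ratio was -0.039 under the loose filter, and the posterior one 3.07 in blood endothelial-like cells. Endothelial members higher in large intestine numbered 5 of 17 with doublets kept, 0 of 8 at 50 UMIs, 6 of 22 at 1 UMI, 1 of 12 in lymphatic and 1 of 5 in blood endothelial-like cells, and those lower 1 under the loose filter, the strict filter, with doublets kept and in blood endothelial-like cells. The shares of all genes stand beside the counts above. Control organoids over tissue epithelium gave -1.15 as a mean per cell. Stroma over epithelium in small intestine gave 4.21 with median-of-ratios scaling and 4.51 as a mean per cell, and in large intestine -0.44 (strict), -0.45 (doublets kept), -0.73 (without mitochondrial and ribosomal protein genes) and -0.85 (median-of-ratios). Without those genes the Visium posterior ratio was 4.86. With 50% in place of 25% of spots on each side the small intestinal muscle ratio was 1.43. The cause of these shifts was not tested. Class-wise values, the epithelial cluster alternatives and leaving out single organoid cells were chosen after seeing the data. Adding 449 Epcam-positive unnamed cells, or leaving out the clusters under 2000 median UMIs, moved no summed epithelial ratio beyond its counting interval. Leaving out a section kept the Visium posterior ratio between 4.68 and 4.77 and the anterior and central one between -1.76 and -1.39. No paired analysis was possible because each tissue library stands alone and section numbers name technical duplicates of separate tissues. Small intestinal stroma, with 664648 UMIs, limited what could be seen of posterior genes there.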

Other observations

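Beyond the Hox genes, 25 other genes were at least 2-fold higher and 45 at least 2-fold lower in the 8 Hoxb13 clusters of large intestinal epithelium than in the 8 clusters with Hoxb2 to Hoxb8, with cluster ranges apart. The genes named here were chosen after their values were seen. Osr2, a zinc finger factor of mesoderm and jaw development, had 0.943 CPM in the Hoxb13 clusters, 38.2 CPM in the others, and 0.461 and 0.525 CPM in the 2 large intestinal Visium sections. Hoxb5os, a non-coding gene of the Hoxb cluster, had 0.0745 and 4.32 CPM, but 4.10 and 4.22 CPM in the sections, and Gulp1, an engulfment adaptor, 0.0993 and 4.61 CPM, but 3.93 and 3.54 CPM. The section levels of these 2 genes were thus on the side of the clusters with Hoxb2 to Hoxb8, and those of the other 4 genes named here on the side of the Hoxb13 clusters. Rdx, which encodes the membrane linker radixin, had 23.4 and 0.846 CPM, and 24.1 and 24.0 CPM in the sections. B3gnt7, a glycosyltransferase, had 212 and 23.2 CPM, and 358 and 371 CPM in the sections. Evx2, the homeobox gene beside Hoxd13, had 0.893 CPM and 0 UMIs, and 1.94 and 1.69 CPM in the sections.

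Immune cells of the small intestine held 83 Hox UMIs (17.5 CPM). Of these, 39 were in the 126 macrophage or monocyte-like cells, where Hoxb2 to Hoxb8 summed to 52.3 CPM. The 14 glia or neuron-like cells of the small intestine had 25 Hox UMIs, 0 of them posterior, and too few UMIs for a comparison.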
